A study of Mus musculus with 3 samples.

Results

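This account describes the DNA methylation landscape of sperm from vehicle control mice, as measured in 1 library of 3 in the study. The library was chosen by its label, and it comprised 143198 windows of 500 bp, all windows that the deposited table lists. Sperm came from the cauda epididymis of C57BL/6 mice that were 14 weeks old. Over 5 weeks, from 8 to 13 weeks of age, these controls were injected with saline into the peritoneum 2 times weekly, on the schedule used for doxorubicin in the other groups, and sperm was taken 4 days after the last injection. The labels do not say how many mice stand behind the library, and the control group had no replicate library. All values below are therefore those of 1 library, with no test and no error between animals. Ranges and intervals describe the spread over windows or counting error only.

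In MBD-seq, sonicated DNA is captured with the methyl-CpG-binding protein MBD2, and the captured fragments are sequenced, so read density follows both the methylation and the number of CpGs in a fragment. Mammalian sperm DNA is highly methylated over most of the genome, apart from CpG islands, which are CpG-dense stretches that often cover gene starts. Germ cells also carry imprints: a few loci are methylated in sperm but not in oocytes, and a larger set is methylated in oocytes but not in sperm. Genes that work in the germ line and are silenced by promoter methylation in somatic cells are a further class with a known state in sperm.

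The deposited RPM value of a window is a read density scaled to library size, and RMS and AMS are scores of methylation that the authors computed per window. The median RMS over all windows was 1.80 (interquartile range 1.24 to 2.80), the median RPM 2.42 (1.43 to 4.17) and the median AMS 0.717 (0.519 to 1.02). A window is called strong here at RMS of 4 or more, which 14499 windows reached, or 10.1% of those listed. Listed windows covered 71.6 Mb. The table holds only windows with RMS above 1 in at least 1 of the study's libraries, and 12857 windows were at or below 1 in the vehicle control. A window that is not listed may hold unmethylated DNA, few CpGs or repeats to which reads cannot be assigned, and these cannot be told apart.

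At starts of coding genes, listing followed the CpG content of the start. RefSeq sequences (GRCm38.p6, the same build as mm10) gave the number of CpGs from 250 bp before to 50 bp after 21263 starts of 17492 coding genes. The windows that hold these starts were listed for 471 starts, or 2.22%. Of 2416 starts with 0 or 1 CpG, 0.621% were listed (exact 95% interval 0.348 to 1.02%). The share rose to 2.40% at 2 to 4 CpGs and 7.72% at 5 to 8 CpGs (6.74 to 8.79%). It was 6.33% at 9 to 12 CpGs, 1.71% at 13 to 16 and 0.313% at 17 to 20. Of 7151 starts with 21 CpGs or more, 17 were listed, or 0.238% (0.139 to 0.380%), and none of the 17 was strong. Listing was thus highest at starts of middle CpG content (5 to 12 CpGs) and lowest at the CpG-richest. By a stand-in for CpG content described below, CpG-rich windows nevertheless had the highest read densities where they were listed.

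The bases just before 8 starts show the range. Slc6a9 (a glycine transporter), Rcan1 (an inhibitor of calcineurin) and Nedd4 (a ubiquitin ligase) are shown because they combined 13 or 14 CpGs with a strong window. These counts are over the 300 bp used above, and only 1.71% of starts with 13 to 16 CpGs were listed. Tssk2, a kinase of spermatids, and Krt5, the keratin of basal epithelial cells, also had a strong window. Their starts hold 6 CpGs in 300 bp, within the band of 5 to 8 CpGs that was listed most often, at 7.72%. Sycp3, which builds the synaptonemal complex of meiosis, and the imprinted genes Peg3 and Mest had CpG counts like the first group and no listed window at their start. Each sequence is the 250 bases before the start, from RefSeq (GRCm38.p6), 5′ to 3′ in the direction of the gene, with CpG in capitals.
Slc6a9: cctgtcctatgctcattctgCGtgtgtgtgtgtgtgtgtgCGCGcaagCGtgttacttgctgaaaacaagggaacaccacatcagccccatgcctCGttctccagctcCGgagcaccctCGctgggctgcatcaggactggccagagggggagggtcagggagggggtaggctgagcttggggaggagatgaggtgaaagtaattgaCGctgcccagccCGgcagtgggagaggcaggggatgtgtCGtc
Rcan1: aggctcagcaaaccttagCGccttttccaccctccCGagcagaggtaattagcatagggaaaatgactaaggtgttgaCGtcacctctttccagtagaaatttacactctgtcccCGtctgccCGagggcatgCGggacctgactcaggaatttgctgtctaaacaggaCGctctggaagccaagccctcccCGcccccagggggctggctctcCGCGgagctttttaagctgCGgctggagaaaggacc
Nedd4: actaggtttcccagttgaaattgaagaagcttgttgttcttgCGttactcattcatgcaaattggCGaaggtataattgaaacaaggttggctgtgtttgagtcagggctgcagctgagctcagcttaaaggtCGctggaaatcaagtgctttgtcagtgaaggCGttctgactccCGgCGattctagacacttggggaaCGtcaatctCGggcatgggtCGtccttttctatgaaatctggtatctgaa
Tssk2: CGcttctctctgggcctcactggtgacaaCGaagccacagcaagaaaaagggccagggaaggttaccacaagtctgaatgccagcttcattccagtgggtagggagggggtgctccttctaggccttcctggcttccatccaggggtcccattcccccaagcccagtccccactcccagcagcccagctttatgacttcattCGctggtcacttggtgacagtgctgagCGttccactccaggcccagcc
Krt5: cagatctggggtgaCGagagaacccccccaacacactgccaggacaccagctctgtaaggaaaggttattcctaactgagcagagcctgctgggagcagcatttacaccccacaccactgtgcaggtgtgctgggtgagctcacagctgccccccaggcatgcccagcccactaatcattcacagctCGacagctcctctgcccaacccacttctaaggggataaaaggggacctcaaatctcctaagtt
Sycp3: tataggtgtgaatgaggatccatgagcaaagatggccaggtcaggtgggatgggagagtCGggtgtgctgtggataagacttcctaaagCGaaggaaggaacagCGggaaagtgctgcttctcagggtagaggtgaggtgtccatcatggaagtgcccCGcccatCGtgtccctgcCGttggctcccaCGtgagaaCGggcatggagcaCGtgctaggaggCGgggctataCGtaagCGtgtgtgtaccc
Peg3: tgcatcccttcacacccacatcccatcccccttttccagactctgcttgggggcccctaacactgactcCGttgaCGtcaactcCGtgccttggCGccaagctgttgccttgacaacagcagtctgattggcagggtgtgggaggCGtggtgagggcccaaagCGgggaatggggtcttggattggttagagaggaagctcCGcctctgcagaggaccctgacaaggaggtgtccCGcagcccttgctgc
Mest: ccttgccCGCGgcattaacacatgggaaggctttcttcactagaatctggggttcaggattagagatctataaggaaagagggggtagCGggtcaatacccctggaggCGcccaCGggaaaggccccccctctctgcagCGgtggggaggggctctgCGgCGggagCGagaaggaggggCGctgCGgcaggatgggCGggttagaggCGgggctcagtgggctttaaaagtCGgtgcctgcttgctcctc
The Slc6a9 stretch lies at chr4:117849100-117849349 on the plus strand and holds 10 CpGs, and its start window, chr4:117849001-117849500, had RMS 5.84 and RPM 6.85. The Rcan1 stretch, chr16:92400079-92400328 on the minus strand, holds 11 CpGs, with RMS 5.45 and RPM 8.54 in its start window. The Nedd4 stretch, chr9:72693048-72693297 on the plus strand, holds 9, with RMS 5.11 and RPM 5.99. Among all coding starts, 50.1% hold at least as many CpGs in these 250 bases as Slc6a9. The Tssk2 stretch, chr16:17898387-17898636 on the plus strand, holds 4 CpGs, and its start window had RMS 4.80. The Krt5 stretch, chr15:101712906-101713155 on the minus strand, holds 2, and its start window had RMS 5.50. The unlisted starts of Sycp3 (chr10:88459337-88459586, plus strand), Peg3 (chr7:6730420-6730669, minus strand) and Mest (chr6:30737800-30738049, plus strand) hold 12, 8 and 14 CpGs. CpG number alone therefore did not separate the listed starts of Slc6a9, Rcan1 and Nedd4 from these unlisted ones. Several of these genes have other starts, and the promoter used in germ cells need not be the RefSeq start shown.

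Other coding starts with strong windows had diverse roles. Ppp2r5c, a regulatory subunit of protein phosphatase 2A, had RMS 6.98, and Ldhd, a mitochondrial D-lactate dehydrogenase, had 6.76. Irf7, a transcription factor of the interferon response, had 4.79, and Zap70, a kinase of T-cell receptor signalling, had 4.01. In all, 39 of the 471 listed starts were strong, or a share near the 10.1% of all windows. Starts of long non-coding RNA genes were listed more often, at 609 of 11588 starts (5.26%, exact 95% interval 4.86 to 5.68%). Their share peaked at 21.8% for 9 to 12 CpGs and was still 17.4% at 13 to 16 CpGs, and it fell to 0.502% at 21 CpGs or more. The low share at the CpG-richest starts was thus seen in both gene classes.

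The fall in listing at CpG-rich starts was deepest within 1 kb and reached about 2 kb to the upstream side. For coding starts with 21 CpGs or more, 4.10% of positions 10 kb before the start lay in a listed window, 2.43% at 2 kb before, 0.322% at 1 kb before, 0.140% at 0.5 kb before, 0.294% at 0.5 kb after and 1.06% at 1 kb after. By 3 kb into the gene the share was 5.52%, above its level upstream. Starts with 13 to 20 CpGs had a dip of the same shape, at 0.571% at 0.5 kb before and 6.20% at 3 kb after. Starts with 5 to 12 CpGs had a maximum at the start itself, 7.18%, between 2.57% at 0.5 kb before and 5.27% at 0.5 kb after. Starts with 0 to 4 CpGs had their maximum, 3.7%, at 0.5 kb after the start.

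**Figure D1:**
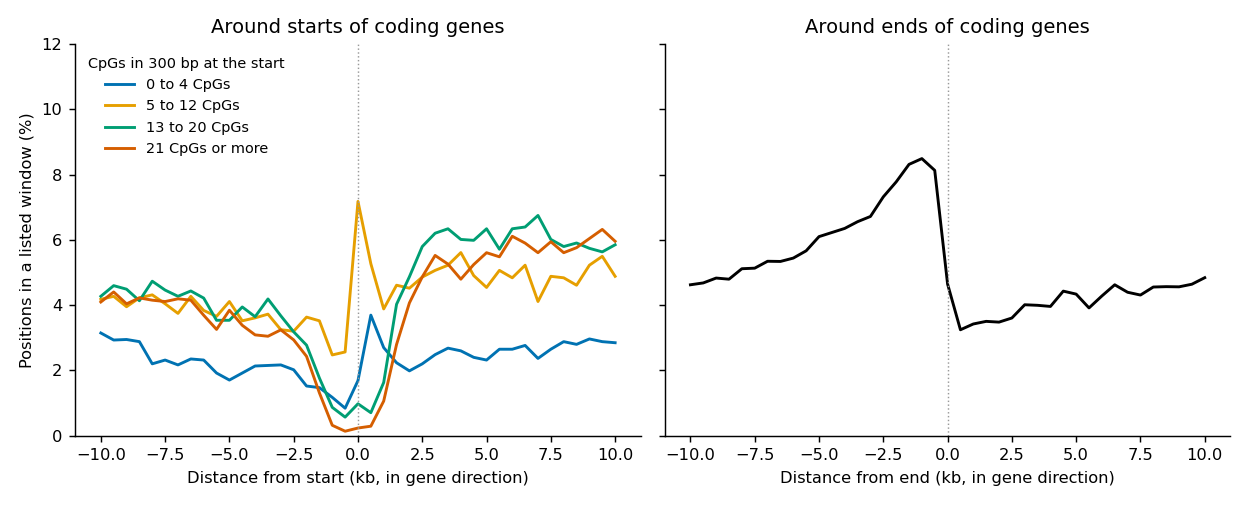
Share of positions (%) that lie in a listed window, by distance in kb from the starts of coding genes (left, split by CpGs in 300 bp at the start) and from their ends (right, 17492 genes). Windows are listed by RMS above 1 in at least 1 of the study's libraries, not in the vehicle control alone. Listing falls to 0.140% just before the CpG-richest starts, has its maximum of 7.18% at starts with 5 to 12 CpGs, and falls from 8.49% inside the gene end to 3.25% just beyond it.

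Gene ends had the opposite shape, with signal high inside the gene and low beyond it. Along 17492 coding genes, the share of positions in a listed window rose from 4.62% at 10 kb before the end to 8.49% at 1 kb before it. It was 4.65% at the end, 3.25% at 0.5 kb beyond and 4.84% at 10 kb beyond. Within 2 kb of the end, 5721 positions inside the gene were listed against 2389 beyond it, a 2.39-fold difference. Among 9560 genes with no other coding gene within 10 kb of the end, the counts were 2532 and 876, or 2.89-fold, so the step was not smaller where no neighbour lay close. Listed positions just beyond the end also had a lower median RMS (1.61 at 0.5 kb) than those just inside it (1.83 at 0.5 kb).

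Gene bodies filled from start to end. In 11080 coding genes of at least 10 kb, each cut into 10 equal parts, density rose without a break from 38.2 listed windows per Mb in the first part to 123 in the last. The median RMS moved from 1.62 to 1.82 over the same parts, and the strong share from 7.44% to 10.5%. Position therefore changed how many windows were listed by more than 3-fold and changed their level by little.

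**Figure D2:**
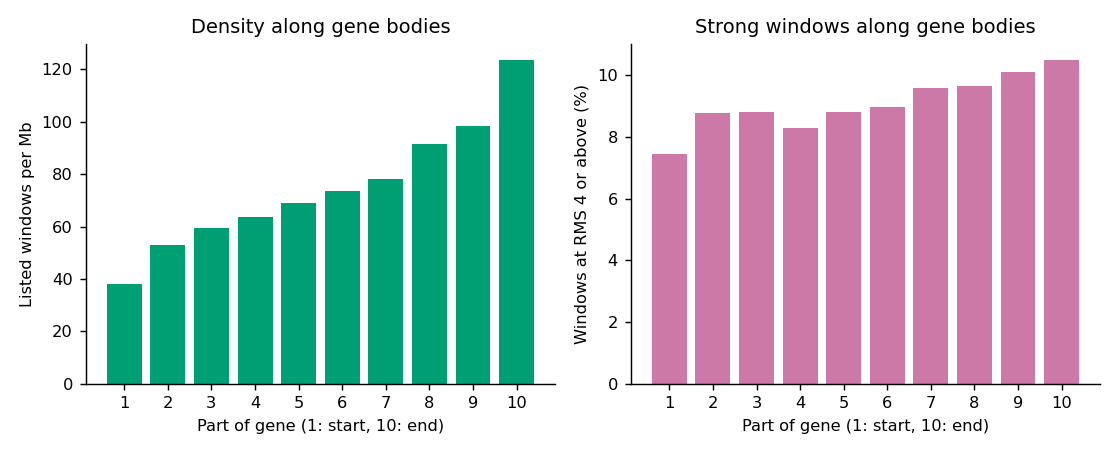
Listed windows per Mb (left) and the share of listed windows at RMS 4 or above (right, %) in each of 10 equal parts of 11080 coding genes of at least 10 kb, from start to end. Density rises in every step, from 38.2 to 123 windows per Mb, and the strong share from 7.44% to 10.5% with a dip in part 4.

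By annotation, exonic and intergenic windows had nearly the same level and intronic windows a lower one. The 38217 exonic windows had a median RMS of 1.87, the 61093 intergenic windows 1.85 and the 42810 intronic windows 1.68. The strong shares were 11.1%, 11.03% and 8.06%. Exonic medians were above intronic ones in 19 of 19 autosomes, and intergenic above intronic in 19 of 19, but exonic were above intergenic in only 10 of 19. Windows over first exons (5808) had a median of 1.81 and those over later exons 1.88, and later exons were higher in 15 of 19 autosomes. A first exon here is that of any annotated transcript, so it can lie well inside a gene. Windows whose lowest exon number was 20 or more, which lie in long multi-exon genes, had 1.94 and a strong share of 13.3%.

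Part of this order went with a stand-in for CpG content. RMS divided by AMS, called the factor here, is a multiple of 0.2 per window. In 429 listed windows that hold a start it rose with the CpGs counted in the RefSeq sequence (Spearman's rho 0.76 across windows, a description). Its median was 1.8 at 0 to 4 CpGs and 7.1 at 21 or more (8 windows). Ranges overlapped, at 1 to 4.2 for 5 to 8 CpGs and 2 to 5.2 for 9 to 12. CpGs were counted in 300 bp, not in the whole window, and windows away from starts were not checked. Intergenic windows had a higher median factor (2.8) than exonic (2.6) and intronic windows (2.4). Among windows with a factor of 2.2 to 2.6, the median RMS was 1.64 in exonic, 1.56 in intronic and 1.5 in intergenic windows, and the strong shares were 4.60%, 3.87% and 3.17%. At matched factor, exonic windows were above both others in 19 of 19 autosomes and intronic above intergenic in 16 of 19. Intergenic windows thus moved from level with exons to the lowest of the classes.

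The 3 deposited measures ranked windows differently as the factor changed. Median RPM rose in every band of the factor, from 1.05 at 1 or less to 11.9 above 8. Median RMS rose from 1.28 to a maximum of 3.63 at factors of 5.2 to 6, where 40.5% of 4644 windows were strong, and was 2.99 above 8. Median AMS was 1.56 in the lowest band, between 0.651 and 0.804 in the bands from 1.2 to 6, and 0.327 in the highest. AMS equals RMS divided by the factor, and windows were listed by RMS above 1 in some library. The AMS trend is therefore partly set by definition and filter. At factors of 1 or less, 20.8% of windows were at or under RMS 1, against 1.01% at 5.2 to 6. Composition changed along the same axis: 71.7% of windows with factors of 5.2 to 6 were intergenic and 7.80% exonic, against 37.5% and 30.1% at factors of 2.2 to 3. Of all 14499 strong windows, 46.5% were intergenic, 29.2% exonic and 23.8% intronic. Factors above 4 were found in 38.4% of strong windows, against 11.1% of all windows. A statement about level thus depends on the measure.

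**Figure D3:**
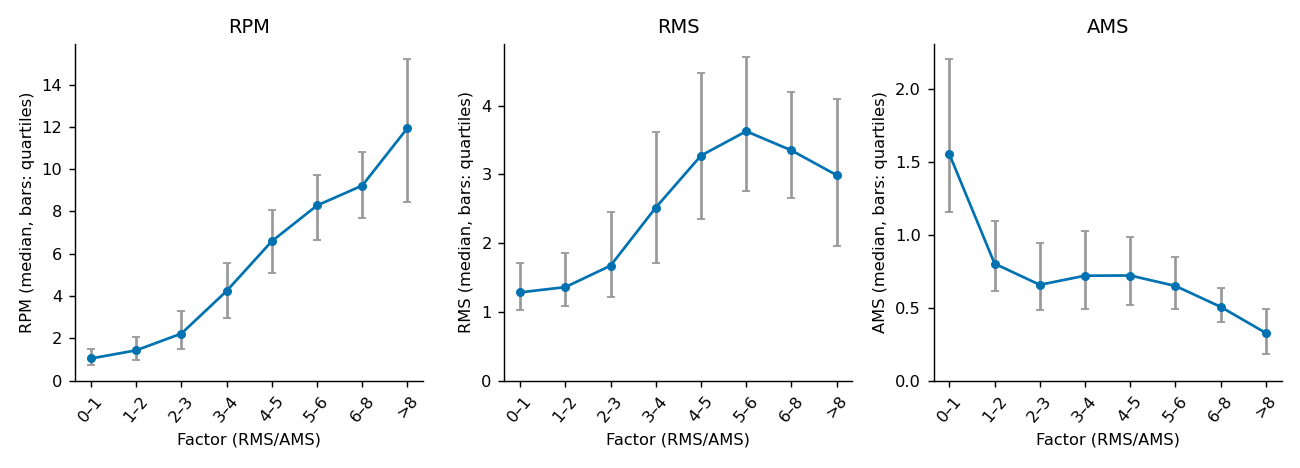
Median RPM, RMS and AMS (points, with bars from the lower to the upper quartile over windows) in bands of the factor RMS/AMS. RPM rises throughout to 11.9, RMS has its maximum of 3.63 at factors of 5.2 to 6, and AMS is highest, at 1.56, in the lowest band. AMS equals RMS divided by the factor, so its trend is partly set by definition.

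Density differed more between chromosomes than level did. Autosomes held from 44.2 listed windows per Mb on chromosome 3 to 72.3 on chromosome 17, the X chromosome 20.96 and the Y chromosome 15.9. Median RMS lay between 1.75 and 1.86 on every autosome and was 1.65 on the X and 1.56 on the Y. Denser autosomes were those with more coding genes per Mb (Spearman's rho 0.70 and Pearson's r 0.58 over 19 chromosomes, which share 1 library, given as a description). Only 4.83% of 3518 X windows were strong, against 10.3% on autosomes, although their median RPM was higher (2.78 against 2.42) and their median factor too (3.4 against 2.6). Just 6.45% of X windows were exonic and 77.9% intergenic. Each sperm carries either an X or a Y chromosome, and the part of copy number in these densities was not tested.

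Along the autosomes, density rose toward the distal ends while level did not. Mouse autosomes have their centromere at the first coordinates, so each was cut into 10 equal parts from there. Density was between 44.8 and 57.5 windows per Mb in the first 8 parts, 74.99 in part 9 and 99.2 in part 10. Median RMS went the other way, from 1.89 in the first part to 1.77 in the last. The rise was less regular at the very tip. The last 5 Mb were denser than the interior in 14 of 19 autosomes (median fold 1.51), the last 10 Mb in 17 of 19 (1.64), but the last 3 Mb in 9 of 19 (0.967). Averaged over autosomes, the last 3 Mb still held 67.3 windows per Mb against 58.04 in the interior. Chromosome 4 had the densest last 5 Mb, at 214 windows per Mb, and chromosome 3 the sparsest, at 23.6.

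**Figure D4:**
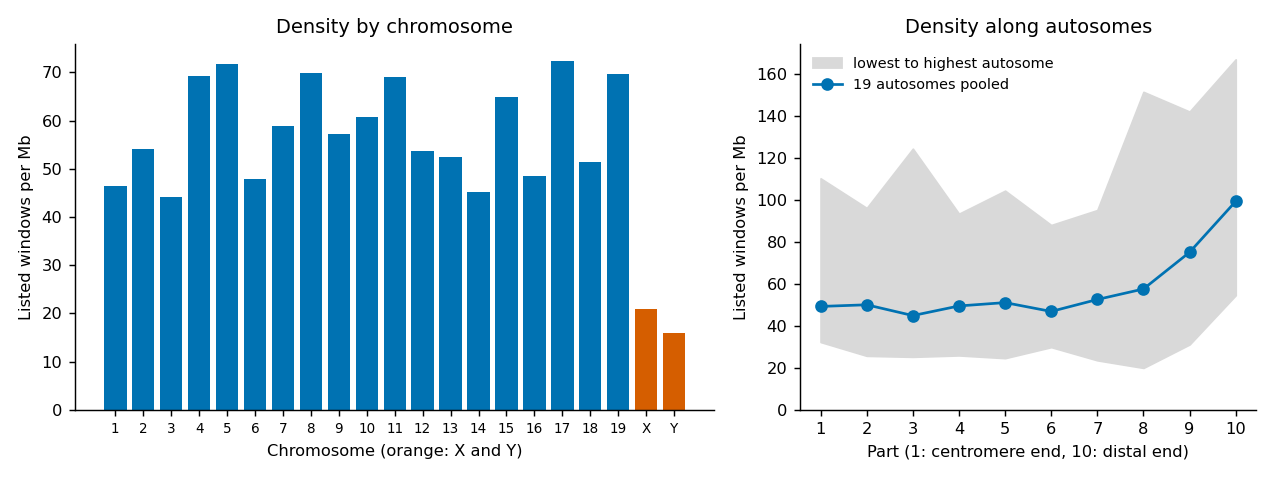
Listed windows per Mb by chromosome (left, X and Y in orange) and in 10 equal parts of the autosomes from the centromere end to the distal end (right, points for all 19 pooled, shading from the lowest to the highest autosome). X and Y lie at 20.96 and 15.9 per Mb, below the autosomal minimum of 44.2, and pooled density is highest in the last part at 99.2.

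At a scale of 1 Mb, listed windows were unevenly spread. All 2411 autosomal blocks held a window, with a median of 43 and a range of 2 to 376, and the densest 121 blocks (5%) held 16.8% of windows. The densest was chr5:114000001-115000000 with 376 windows, 47 of them in Acacb, which makes malonyl-CoA for the control of fat oxidation, and 34 in Ube3b, a ubiquitin ligase. The next block on chromosome 5 held 313, of which 120 lay in Cit, a kinase of cytokinesis. On chromosome 8, the block chr8:122000001-123000000 held 294 windows, and on chromosome 4, chr4:141000001-142000000 and chr4:152000001-153000000 held 282 and 275. The most-represented genes of the last were Nphp4, a cilium protein, Kcnab2, a potassium channel subunit, and Chd5, a chromatin remodeller that acts in spermatids.

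Neighbouring windows were often listed together, and clustered windows were stronger. Of all windows, 44.9% had no listed neighbour, 33.5% lay in pairs and 21.5% in longer runs. Median RMS was 1.58 for isolated windows, 1.85 in pairs, 2.35 in runs of 3 or 4 and 2.66 in runs of 5 or more, and the strong share rose from 5.84% to 25.4%. The longest run had 24 windows, 12000 bp without a gap at chr15:76172001-76184000 in Plec, which encodes plectin, a very large linker of the cytoskeleton. Its RMS ranged from 1.36 to 6.88 with a median of 4.24 and a median factor of 5.4. Runs of 16 windows in Spen, a transcriptional repressor that acts in X inactivation (chr4:141471501-141479500, median RMS 3.81), and of 15 in Kif26a, an atypical kinesin (chr12:112172501-112180000, 3.58), were the next in named genes. The second longest run of all, 20 windows at chr3:6297501-6307500 with a median RMS of 3.35, lay in no annotated gene.

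Of 21900 coding genes in RefSeq, 12096 (55.2%) had an annotated window in the table, and the median gene symbol had 3. A strong window was present in 4296 of 15181 symbols, or 28.3%. By number of windows the table ranked Fgfr2 first with Wwox, at 223 each. For Fgfr2 only 19 of these lay in the RefSeq gene of 104 kb, since the transcript set used by the authors stretches that symbol over 2942 kb. In Wwox, an oxidoreductase gene at a fragile site, all 223 lay in the RefSeq gene, 12 of them exonic, with a median RMS of 1.74 and 16 strong. Camta1, a calmodulin-binding transcription activator, had 217, of which 183 lay in the RefSeq gene. The others of the 10 were Dst, Gse1, Cit, Trio, Ttn, Zfhx3 and Cdh13, with 108 to 135 windows.

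Long genes reached such numbers in different ways. In Ttn, which encodes the giant muscle protein titin, 122 of 123 windows were exonic and 38 were strong, with a median RMS of 2.50 and a maximum of 15.4 in exon 186 (chr2:76711501-76712000). In Cdh13, a cadherin gene of 1185 kb, 102 of 108 were intronic and 4 were strong, with a median of 1.66. Dst, which encodes the cytoskeletal linker dystonin, had 72 exonic windows of 135 and 28 strong, and Trio, a guanine nucleotide exchange factor, had 43 of 124 and 23 strong. Of these 4, Ttn had the most exonic windows and the highest median, and Cdh13 the fewest and the lowest, near that of all intronic windows (1.68). Between them the order did not hold, since Trio had a median of 2.26 and Dst 2.19. Cit had 39.1% of its RefSeq length in listed windows, against 4.56% for Cdh13.

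Coverage of gene length was ranked after the values were seen. Among 10039 coding genes of at least 20 kb, the median gene had 2.62% of its length listed (interquartile range 0.697 to 6.47%), and 2080 had no window. Among the most covered were Jag2, a Notch ligand, at 61.3%, Cep131, a centrosomal protein, at 44.6%, and Adcy6, an adenylyl cyclase, at 44.3%. The longest with no window were Ncam2, a neural adhesion molecule of 424 kb, and Cask, a synaptic scaffold of 330 kb on the X chromosome. Of the 10 longest coding genes with no window, Cask, Pola1, Col4a6, Enox2 and Tex16 lie on the X.

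Levels of single genes spanned a wide range. Among genes with at least 5 windows, Dus3l, a tRNA-modifying enzyme, had the highest median RMS, 5.19, from 7 exonic windows between 0.816 and 8.59. Kcnj12, an inward-rectifier potassium channel, had 5.14 from 5 windows, and Cdc37, a kinase co-chaperone, 4.67 from 5. Zbtb39, a zinc finger gene, had 4.66, and Nop2, a ribosomal RNA methyltransferase, 4.36. Rtl1, a paternally expressed imprinted gene derived from a retrotransposon, had 4.40 from 8 windows in exon 2. At the other end, Mns1, a sperm flagellum protein, had a median of 0.654 from 5 windows, Col5a3, a collagen chain, 0.796, Kat2b, a histone acetyltransferase, 0.833, and Mtr, methionine synthase, 0.857. Theg, a gene expressed in spermatids, had 0.958. Windows at or under RMS 1 in the vehicle control are in the table because another library was above 1 there.

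**Figure D5:**
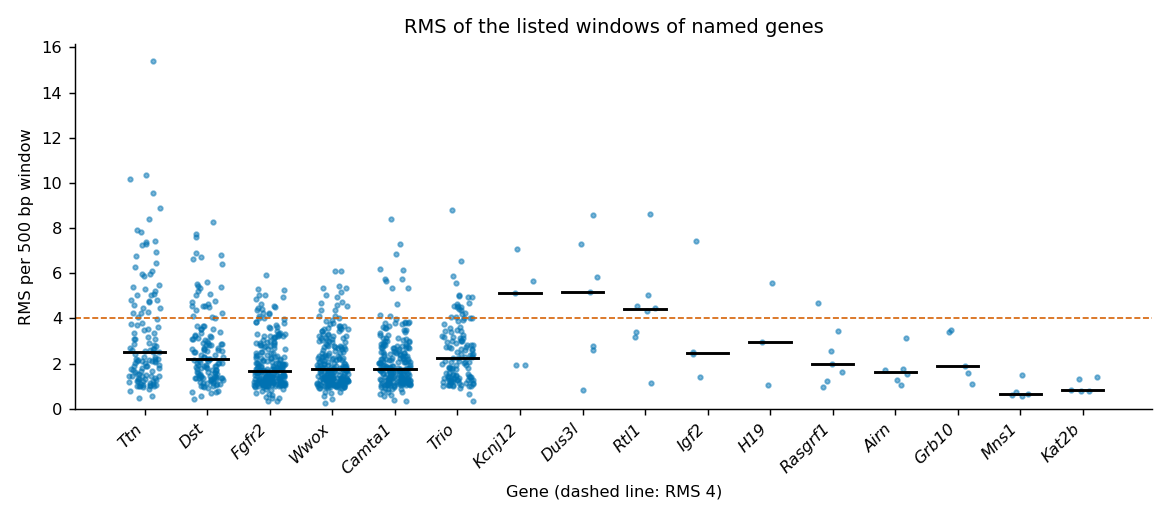
RMS of every listed window (points, spread sideways for legibility) and the median (bar) for 16 named genes, with RMS 4 as a dashed line. Ttn reaches 15.4 and has 38 of 123 windows above the line, Kcnj12, Dus3l and Rtl1 have medians above it, and all windows of Mns1 and Kat2b lie below it.

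The highest single windows are described in 2 groups, and other windows lay between them, such as chr17:39847501-39848000 at RPM 89.9. The first was extreme read density: 11 windows with RPM above 100 held 1.72% of summed RPM, and 2 neighbouring windows at chr2:98666501-98667500 held 1.28%, with RPM of 2576 and 3294. A window shared by Sfi1 and Drg1 (chr11:3193001-3193500) had RPM 226 and RMS 63.5. Repeats were not annotated here, so reads from many copies that were assigned to 1 place and strong methylation of that place cannot be told apart. The second group was taken from the other named genes with the highest windows. Their RPM was 10.2 to 25.2, near or above the 99th percentile of all windows (10.9) but far below the first group. Hjurp, the chaperone that loads centromeric histone CENP-A, had RMS 17.3 in exon 2, and Bnc2, a zinc finger gene expressed in the germ line, had 13.1 in an annotated first exon (chr4:84292001-84292500). Ank3, a spectrin adaptor, had 12.02, and Lrrc8d, a volume-regulated anion channel subunit, 11.2. Annotated first exons of Celsr2 and Fat1, which encode large atypical cadherins, had 9.63 and 9.15, and that of Prdm16, a histone methyltransferase gene, had 9.20. These first exons are those of any annotated transcript and need not be the gene start.

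The label of the sample was checked against imprinted and germline genes. Listed windows lay upstream of H19, Meg3 and Rasgrf1, where the intergenic imprints of sperm are known to lie. The same search upstream of Zdbf2, another locus of this class, found no listed window. It began at the outer end of a RefSeq span of 114 kb with 2 starts. Sequence before a start inside that span was not searched, so this result does not show whether the Zdbf2 imprint carries signal. Upstream of H19, a maternally expressed non-coding RNA, 5 windows lay 1.6 to 4.1 kb before the start, with RMS of 1.19, 4.20, 1.6, 3.5 and 1.56. Upstream of Meg3, another maternally expressed non-coding RNA, 6 windows lay 10.2 to 14.2 kb away, the highest at 12.7 kb with RMS 3.83. Upstream of Rasgrf1, an exchange factor for Ras, windows lay at 29.8 and 29.3 kb, with RMS of 5.11 and 1.81. The search reached 10 kb upstream of H19, 20 kb of Meg3 and of Zdbf2, and 40 kb of Rasgrf1. Of positions 10 kb before coding starts in general, 3.88% lay in a listed window, so the number found upstream of Rasgrf1 is not an excess. The 7 loci of this class held 34 windows in their genes, 8 of them strong (23.5%), with a median RMS of 2.54, beside 10.1% of all windows. Rtl1 held 5 of the 8, and without it 3 of 26 windows were strong (11.5%). Igf2, a fetal growth factor, reached 7.42 in an exon.

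Imprinted genes at or near loci that oocytes methylate had few listed starts, as coding genes had in general. Some of these genes host or adjoin the imprint, so their start need not be the methylated sequence. Of 31 such genes, 15 had a window annotated to their symbol and 17 a window in their RefSeq span. Of 24 with a RefSeq start 1 had it listed, beside 2.22% of all coding starts. This was Grb10, an adaptor that restrains growth, whose listed start window had RMS 1.11 and a factor of 0.6. No start window was listed for Snrpn, Peg3, Mest, Kcnq1ot1, Igf2r, Plagl1, Nnat, Zrsr1, Nap1l5, Inpp5f or Mcts2. Windows over annotated first exons were listed in Peg10, a gene derived from a retrotransposon (RMS 0.952 and 1.65), and in Gnas, which encodes a G protein subunit (4.16). Gene bodies of this class were not empty. Igf2r, the receptor that clears IGF2, had 7 windows with a median of 3.44, Kcnq1, a potassium channel, had 20, and Trappc9, a trafficking gene, had 61. Of 23 germline genes that are silenced by methylation in somatic tissues and have a RefSeq start, none had it listed. Among them, 9 starts have over 20 CpGs, a class with few listed starts in any gene, so the 0 is not particular to germline genes.

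Gene families differed in how much of their sequence was listed. Coding genes as a whole held 7.64 windows per 100 kb, with 9.36% of annotated windows strong, a median RMS of 1.76 and 2.22% of starts listed. Keratins, the intermediate filaments of epithelia, held 22.6 per 100 kb, nearly all exonic (93.9%), and 10 of 37 starts were listed (27.0%, exact 95% interval 13.8 to 44.1%). Spermatid and sperm genes held 12.8 per 100 kb, but 57 of their 134 annotated windows lay in the long dynein gene Dnahc8 and 20 in Dnahc1. Much of this density thus came from these dyneins, which are counted again with the axonemal dyneins below. Of 41 starts in the list 5 were listed, those of the protamine Prm1, the transition protein Tnp2, the sperm calcium channel subunit Catsper4 and the kinases Tssk1 and Tssk2. These 5 starts have 1 to 6 CpGs. The genes are expressed in germ cells after meiosis, and the highest window among them was in Tssk1 (RMS 7.35).

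In several families of long genes most members had a window, as did long genes in general: of 2429 coding genes of at least 100 kb, 5.64% had none. Every one of 15 axonemal dyneins, the motors of the sperm tail, had a window in its RefSeq span, with 386 in all. By annotation, 14 dynein symbols held 357 windows, 63.0% of them exonic, the highest 9.49 in Dnahc8. All 39 myosins had a window, the highest 10.4 in Myh9, a non-muscle myosin. Of 40 voltage-gated calcium and sodium channel genes 37 had a window, and of 47 glutamate and GABA receptor genes 42, the latter mostly in introns (21.3% exonic) and at 3.29 per 100 kb, below the 7.64 of all coding genes. Spermatogonial genes held 17.4 per 100 kb, and the highest of these windows were in Kit, the receptor for stem cell factor (8.40), Etv5, a transcription factor of stem cell renewal (7.59), and Ret, the receptor of GDNF (6.23). None of their 16 starts was listed. Genes of the DNA methylation machinery held 11.96 per 100 kb, with Dnmt3a, the main methyltransferase of male germ cells, at up to 5.95 and Dnmt1, the maintenance enzyme, at up to 5.44. None of the 28 starts of this list was listed either (0 to 12.3%). Both intervals include the share of all coding starts. Genes that mark other cells of the testis and epididymis also had windows: 8 of 16 Sertoli and Leydig cell genes, 12 of 16 leukocyte genes and 4 of 16 epididymal epithelium genes, beside 55.2% of all coding genes. Their lists had 0 listed starts of 8, 13 and 15, beside 2.22% of all coding starts. A window in such a gene is a state of its DNA and does not count those cells.

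Other families differed in density, in strong share or in listed starts. Of 39 Hox genes, which pattern the body axis, 5 had a window in their RefSeq span, and none of 9 annotated windows was strong. Of all coding genes 56.2% had a window in their span, but of those under 20 kb 62.8% had none. Fox, Sox, Pax and related developmental factors had 492 windows in 125 genes, with 8.13% strong. Of their 108 starts 0 were listed (exact 95% interval 0 to 3.36%, which includes the 2.22% of all coding starts). The density of these factors, 8.65 per 100 kb, was not low. Of 67 replication-dependent histone genes 2 had a window. Of 1110 olfactory receptors 36 had a window in their span (3.24%), at 2.25 per 100 kb. Vomeronasal receptors were as sparse, at 2.09 per 100 kb, but 17.9% of their 84 annotated windows were strong, and 3.57% were exonic. Zfp zinc finger genes had 15.4% of 947 windows strong, at an ordinary density of 8.18 per 100 kb. Cytochromes P450 had 2.40% of 125 strong, and none of 57 windows of ribosomal protein genes or of 38 of housekeeping genes was. These families held 4.71, 17.7 and 8.20 windows per 100 kb, respectively. The highest window of Actb, which encodes beta-actin, was in exon 5 (RMS 3.11). Of 26 starts of housekeeping genes 0 were listed (exact 95% interval 0 to 13.2%), which again includes the share of all coding starts.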

How the data were processed

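MBD-seq was run on 3 sperm libraries, 1 per group, and only the vehicle control was used here. Per the labels, DNA was sonicated to about 300 bp and enriched with MBD2. The authors deposited 1 table of 500 bp windows with RPM values scaled to library size, per the file headers, and with RMS and AMS scores that the headers do not define. Windows are on mm10 (submitters' processing notes) and were annotated to Ensembl transcripts of 2013 with a flank reach of 500 bp, per the file headers. No source used here names the aligner or the scoring program. The authors' ratio column was not used.

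The 297037 lines were reduced to 143198 windows, each counted once, with the class order exonic, flank, intronic, intergenic. RPM values were whole multiples of 0.0214 (100%, within 0.05 of a step), but whether a step is 1 read is not stated, so the depth per window is unknown and single levels carry no interval. Starts, spans and sequences came from RefSeq (GRCm38.p6), and gene ends from RefSeq spans. Shares carry exact Clopper-Pearson intervals at 95%, which cover counting error only. With 1 library there was no test. The scripts were tested on simulated data and ran in Python 3.11.15 with pandas 2.3.3, numpy 2.4.6 and scipy 1.17.1.

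Genes were named by a rule: the 10 with the most windows, the 10 with the highest and the 10 with the lowest median RMS at 5 or more windows, the 10 highest exonic or intronic, first-exon or upstream, and factor windows, up to 4 per gene list, and imprinted genes. Listed starts, genes of dense blocks and runs, and genes ranked by covered length were named after their values were seen. Of the most covered genes, 1 is not reported here. Predicted genes, clones and receptors of large families were counted but not named. Members, lists and limits were chosen with earlier results of these data known. Alternatives were the other measures, RMS above 1, the 1% highest RPM left out, other limits, bands and end lengths.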

Additional observations from a re-analysis of the deposited data

How the results depend on the processing

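Of 45 recomputed values, 17 stayed within the interval of the main value, 22 moved beyond it with the same sign and 6 reversed. Intervals over so many windows are narrow, so small shifts count as moved. With RPM in place of RMS, the median of all windows was 2.42, the exonic minus intergenic difference (log2, 0.015 with RMS) reversed to -0.11, the intronic minus intergenic difference went from -0.14 to -0.36, the highest minus lowest of 5 factor bands from 1.23 to 2.21, and the X minus autosomes difference reversed from -0.13 to 0.20. With AMS they were 0.717, 0.16, 0.086 (reversed), -0.39 (reversed) and -0.59, and the first-exon minus later-exon difference went from -0.054 to -0.10. With only windows above RMS 1, the median was 1.93, exonic minus intergenic -0.0016 (reversed), that of the factor bands 1.14 and the strong share 11.1%. Without the 1% of windows with the highest RPM, the median was 1.78, that of the factor bands 1.18 and the strong share 9.41%. First exons with no other exon number gave -0.12, 10 factor bands 1.39, and limits of RMS 3 and 5 strong shares of 21.7% and 4.54%. The distal rise in density (log2 0.59 for the last 5 Mb) reversed to -0.049 for the last 3 Mb. The step at gene ends (log2 1.26) was 1.53 in genes without a close neighbour, an alternative chosen after the data were seen, as were those for CpG-rich starts, which stayed at 0.210 to 0.238%. Of the 10 genes of highest median RMS, 5 were kept by mean RMS and 3 at 10 or more windows, and of the 10 lowest 6 and 0. The cause of these shifts was not tested, beyond the smaller set of genes in the last case. No paired analysis was possible because the control has 1 library and is compared with no other group. Depth per window is unknown, and unlisted windows were not analysed here.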
